A study of Mus musculus with 1047 samples.

Results

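Ependymal cells were taken from the pooled droplet table of aged mouse brain as the cells with at least 500 detected genes, a UMI (a counted RNA molecule) of at least 5 of 7 genes (Ccdc153, Tmem212, Rarres2, Dynlrb2, Mia, Pifo and Rsph1), and under 30 UMIs per 10000 for P2ry12, Cx3cr1 and Trem2 together. The rule found 520 cells among 20495 cells with 500 or more genes. The table was labelled as coming from 24-month-old male C57BL/6J mice, with 3 libraries of grey matter and 2 of white matter, each from a pool of 3 or 4 animals. The white matter library of batch 3 is titled wild type but carries the genotype ApoeKO among its characteristics. The members were chosen by measured values, so the genes of the rule are no finding. A second droplet table was labelled as ApoeKO white matter (strain B6.129P2-Apoetm1Unc/J, male, 18 months, 4 libraries of 2 pooled mice each). The labels of these droplet libraries say only that the brains were micro-dissected and refer to an earlier description. In the labels of the study's plate-based cells, grey matter came from frontal cortex and white matter from tracts freed of attached choroid plexus. All of these libraries were unsorted brain cells after myelin removal, dissociated, by the same reference, as the plate-based cells were, with actinomycin D at 45 µM. Cells in the aged table carry 1 of 5 barcode endings, and no label ties an ending to a library. White matter could therefore not be compared with grey matter, the table counts as 1 pooled sample, and no test was possible: intervals below cover counting error only.

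Ependymal cells line the cerebral ventricles and carry bundles of motile cilia that move cerebrospinal fluid. A motile cilium is built around the axoneme, a ring of microtubule doublets with a central pair, on which outer and inner dynein arms, radial spokes and the nexin-dynein regulatory complex produce and control the beat. Choroid plexus epithelium is the neighbouring ventricular lining that secretes cerebrospinal fluid, and it also has cilia, which makes it the natural comparison.

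Nearly all of the ependymal cells came from 2 of the 5 barcode endings. Ending 1_2_2 held 365 of them (8.61% of its cells, exact binomial 95% interval 7.79% to 9.50%) and ending 1_2_1 held 154 (3.87%, 3.30% to 4.52%). Ending 1_1_2 held 1. Endings 1_1_1 and 1_3 held 0 of 2360 and 0 of 5693 cells, with upper limits of the exact 95% interval of 0.156% and 0.0648%. The same 2 endings held 200 and 365 of the 602 cells called choroid plexus cells here (a UMI of at least 4 of Folr1, Kl, Clic6, Kcnj13, Slc4a5, Prlr, Sostdc1 and Otx2). Astrocytes (at least 5 of Slc1a2, Aldoc, Aqp4, Gja1, Ntsr2, Cldn10, Mlc1 and Slc7a10) showed the opposite distribution: of 3663, 150 were in ending 1_2_1 and 135 in 1_2_2. The median depth was 12785 UMIs per ependymal cell against 7134 in all other cells, and the ependymal range ran from 692 to 48237. A total of 41 barcodes occurred under more than 1 ending, among them that of 1 ependymal cell.

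The values that chose the cells are given as a description. A level below is the summed UMIs of a gene per 10000 UMIs of the cells, a scale of molecules that is not corrected for gene length. Rarres2, which encodes the secreted chemoattractant chemerin, had the highest level of the 7 at 26.0 (25.7 to 26.4; chromosome 6, 48569696 to 48572789), against 0.252 in the other cells. Tmem212, a membrane protein gene, followed at 21.3 (21.0 to 21.6; chromosome 3, 27866066 to 27896368), and the coiled-coil gene Ccdc153 at 18.5 (18.2 to 18.8; chromosome 9, 44240676 to 44247306). Rsph1, a radial spoke head protein, stood at 9.08 (chromosome 17, 31255019 to 31277383). Dynlrb2, a dynein light chain, stood at 8.87 (chromosome 8, 116504974 to 116515915). Pifo (chromosome 3, 105996957 to 106014646) and Mia (chromosome 7, 27179742 to 27181157) were lowest at 3.92 and 2.58. Coordinates are those of GENCODE vM21 on GRCm38, and the counts are per gene, not per exon or UTR. The 7 levels were 44.1-fold (Pifo) to 402-fold (Ccdc153) those of the other cells. Both large endings gave close values, 18.0 and 18.7 for Ccdc153 and 21.4 and 21.3 for Tmem212 in 1_2_1 and 1_2_2. Mia differed most among the 7, at 3.18 and 2.29.

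Just inside the threshold, 69 cells had exactly 5 of the 7 genes and a median of 3477 UMIs. Just outside it, 173 cells had 4, with a median of 11563 UMIs, no Ccdc153 or Tmem212 UMI in the median cell and a median of 694 Ttr UMIs. The 350 cells with all 7 had a median of 16109 UMIs, 32 of Ccdc153 and 4 of Ttr. On the other side of the rule, the 3 ependymal cells with most P2ry12, Cx3cr1 and Trem2 had 26.8, 26.9 and 28.6 UMIs per 10000, and 14 cells with the rule genes were left out by the limit, the lowest at 31.2.

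The label was checked against choroid plexus genes, and a small subset went against it. Of the 520 cells, 51 held a UMI of at least 5 of the 8 choroid plexus genes, a threshold chosen after the values were seen. In them Ttr, the thyroid hormone carrier that choroid plexus secretes and which is not among the 8 genes, had a median of 764 UMIs per 10000 per cell, against 2.13 in the other 469. Ccdc153 had a median of 0.287 in the 51 and 21.5 in the 469, and Tmem212 0.366 and 24.3. All 51 held Dynlrb2, Pifo and Rsph1. Those 3 rule genes were also found in 65.4% to 71.6% of choroid plexus cells, where the other 4 were found in at most 21.4% (Mia). In the 602 choroid plexus cells, which by construction hold fewer than 5 rule genes, the median Ttr value was 1304. The 51 are therefore called by their genes, choroid-gene-rich cells, and results are given for the 469 cells without them wherever they matter. Microglia here are the cells with 500 or more genes and at least 30 UMIs per 10000 for P2ry12, Cx3cr1 and Trem2 together. They include the 14 cells left out by the limit. Among the 469, Ttr had nearly the same median as in microglia of the same 2 endings (2.20), cells that should lack it, at median depths of 12407 and 8549 UMIs. Its summed levels in endings 1_2_1 and 1_2_2 were 1.26 and 3.07, under those of the microglia there (3.90 and 9.28), so no expression is read from it. Folr1, the folate receptor, one of the 8 genes, was different: it had a UMI in 80.8% of the 469 and in 2.07% of those microglia, at a level of 2.49 against 5.04 in choroid plexus cells.

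**Figure D1:**
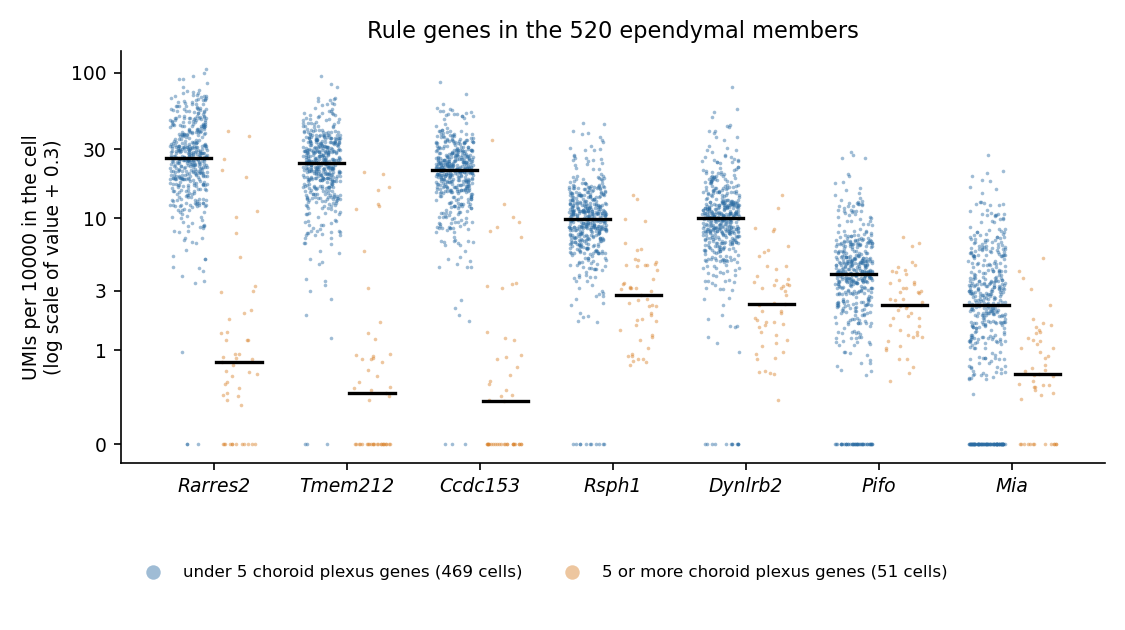
Each point is the value of a rule gene in 1 cell, as UMIs per 10000 of that cell on a log scale, for the 469 cells with under 5 choroid plexus genes (blue) and the 51 with 5 or more (orange); black bars are medians. Rarres2, Tmem212 and Ccdc153 separate the 2 sets, with Ccdc153 medians of 21.5 and 0.287, while Pifo, Rsph1 and Dynlrb2 overlap.

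**Figure D2:**
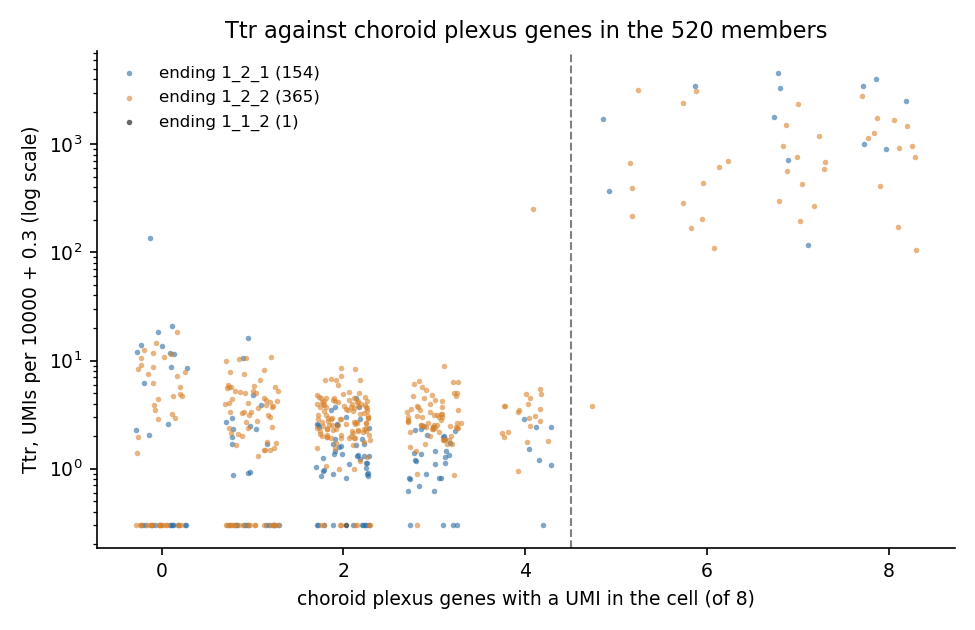
Each point is 1 of the 520 cells, placed by the number of the 8 choroid plexus genes with a UMI (jittered) and by Ttr in UMIs per 10000 plus 0.3 on a log scale, coloured by barcode ending. Ttr lies mostly under 20 to the left of the dashed line and mostly above 100 to its right, in both large endings.

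Motile cilium genes are switched on by FOXJ1 and by RFX factors, which bind a paired motif known as the X-box. The 250 bases before the transcription start of each gene (RefSeq, GRCm38.p6) were searched on both strands for the X-box, written as GTTNCC and GNAAC with 3 bases of any kind between them. They were present for 3.05% of the 1148 genes that had both an entry and a level at least 4-fold that of the other cells, for 0.863% of the 7652 other tested genes, and for 0.791% of all 26794 genes with an entry. Of the axoneme genes described below, 64 had an entry and 5 held the letters (7.81%), and of the rule genes 5 had an entry and 1 held them (Pifo, at the downstream of its 2 starts). The 6 matches are shown because they are the sequences behind these shares. Each is printed 5′ to 3′ on the strand of its gene with flanking bases, capitals mark the X-box match, and none extends past the start. In Hydin and Cfap45 the letters searched lie on the opposite strand.
Hydin (chr8:110266896-110266976, plus strand): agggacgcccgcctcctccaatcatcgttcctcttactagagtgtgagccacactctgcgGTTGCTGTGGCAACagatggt
Pifo (chr3:106001498-106001577, minus strand): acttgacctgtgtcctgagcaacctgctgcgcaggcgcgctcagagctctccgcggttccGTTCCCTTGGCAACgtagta
Cfap45 (chr1:172521051-172521129, plus strand): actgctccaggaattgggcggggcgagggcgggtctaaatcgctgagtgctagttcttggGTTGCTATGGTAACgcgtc
Ccdc151 (chr9:22002635-22002728, minus strand): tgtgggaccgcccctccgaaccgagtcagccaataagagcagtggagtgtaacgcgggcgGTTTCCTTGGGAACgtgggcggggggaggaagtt
Iqca (chr1:90153463-90153596, minus strand): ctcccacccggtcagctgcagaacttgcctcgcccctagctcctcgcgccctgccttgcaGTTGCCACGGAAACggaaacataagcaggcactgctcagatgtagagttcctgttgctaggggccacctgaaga
Spag16 (chr1:69826807-69826940, plus strand): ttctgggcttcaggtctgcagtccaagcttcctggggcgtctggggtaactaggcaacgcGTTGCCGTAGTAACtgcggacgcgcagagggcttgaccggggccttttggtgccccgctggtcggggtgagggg
The match began between 19 (Cfap45) and 103 (Spag16) bases before the start, and in Hydin, Pifo, Cfap45 and Ccdc151 it lay within the last 34. A shorter motif, GTTGCCA, which can lie inside an X-box, was found for 17.2% of the 64 axoneme genes and for 4.23% of all genes. The forkhead core TGTTTAC showed no such spread, at 4.69% of the axoneme genes and 3.56% of all. A match describes letters and says nothing of binding.

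The regulators of the multiciliated state were present at low but clear levels. Foxj1, the forkhead factor of motile ciliogenesis, had a level of 4.38 (4.23 to 4.52), which was 127-fold (116 to 139) that of the other cells, and a UMI in 84.0% of the 520 cells against 1.98% of microglia in the same endings. Myb, which acts early in multiciliated differentiation, had 1.37 and Trp73, a p53 family member needed for multiciliation, 0.433. Of the RFX genes, Rfx2 had 0.516 (24.6-fold), Rfx3 1.01 (4.88-fold) and Rfx4 0.982 (2.90-fold), the last of which was higher in astrocytes at 1.83. Deup1, of the deuterosome that multiplies centrioles, had 0.311, Gmnc, the geminin-like initiator, 0.156, and Ccno 0.0468. In all, 8 of the 9 tested members of this list were at least 4-fold higher; a gene counts as tested if its level was at least 0.1 in either set, and 13.5% of the 11186 tested genes were at least 4-fold higher in the same comparison. That share and every count against the other cells describe the contrast that chose the cells, and nothing is read from them as a test.

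Of the 96 gene names in the 6 axoneme lists, some of them an older and a newer name of 1 gene, 80 matched the table, and the others were not analysed here. All 78 tested genes were at least 4-fold higher than in the other cells, with a median of 83.6-fold, where the median over all tested genes was 0.970-fold. Among the outer arm heavy chains, the motors that drive the beat, Dnah9, Dnah5 and Dnah11 had levels of 2.39, 2.30 and 1.87, and the intermediate chain genes Dnaic1 and Dnaic2 had 1.39 and 0.970. Dnah17 was at 0.00123, from 1 UMI. The inner arm heavy chains spread more widely, from Dnah12 (3.76) and Dnah6 (3.24) through Dnah10 (1.22), Dnah1 (1.20) and Dnah3 (1.01) to Dnah7c (0.321), whose near-identical neighbours Dnah7a and Dnah7b cannot be fully separated from it by short reads. Dnali1, the inner arm light intermediate chain, had 2.63. In the central pair, Cfap54 had the highest level at 5.59, followed by Spef2 (4.11), Hydin (3.40) and Spag17 (2.37). The paralog pair Spag6l and Spag6 was one-sided, with 2.32 for Spag6l and 0 UMIs for Spag6.

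Among radial spoke genes the rule gene Rsph1 had 9.08, Rsph4a 3.42, Rsph9 3.26 and Nme5 3.21. The regulatory complex was led by Iqca and Drc3, both at 3.33, and Iqcg at 2.94. In the doublet list, proteins inside the microtubule wall, Meig1 had 6.82, Cfap126 6.74, Enkur 4.88 and Cfap161 3.12. Of the tektins, filaments of the doublet, Tekt1 had 2.58 and Tekt4 1.28, while Tekt2 and Tekt3 had 0.126 and 0.171. Dynein arm assembly factors, which act in the cytoplasm, were at least 4-fold higher for 10 of 11, from 3.87-fold for Ruvbl1 to 176-fold for Dnaaf1. Without the choroid-gene-rich cells all 12 then tested were. Over all tested genes the higher shares were 13.5% with those cells and 14.3% without them.

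Genes of transport and of the base of the cilium had smaller ratios. Intraflagellar transport genes were at least 4-fold higher for 24 of 30, with a median of 7.53-fold; Ift20 had the highest level at 3.26 and Ttc30b the largest ratio at 29.5-fold. For the basal body, transition zone and BBSome list the count was 14 of 24 (16 without the choroid-gene-rich cells), with a median of 5.11-fold, led by the centrin gene Cetn2 at 5.73. Tubulin was concentrated in 2 genes: Tuba1a had 24.3 (11.2-fold) and Tubb4b 19.3 (10.5-fold), Tuba1b had 4.89, and the neural isotypes Tubb2b and Tubb3 had 0.176 and 0.0148. Tppp3, a tubulin polymerisation protein, had 7.18 (75.1-fold). Among tubulin-modifying enzymes Ttll3, a glycylase, had 2.20, and the glutamylase Ttll6 had 0.482 against 0.00195 in the other cells. In the planar polarity list, whose proteins align cilia across the tissue, Fzd3 (2.90, 25.5-fold), Celsr1 (0.725, 10.1-fold), Prickle2 (0.245), Ankrd6 (0.368) and Vangl1 (0.532) were the 5 of 12 at least 4-fold higher, 1 was at least 4-fold lower, and Celsr2 (0.486) and Vangl2 (0.198) were neither. For each of these lists, the shares over all tested genes were 13.5% at least 4-fold higher and 12% at least 4-fold lower. Without the choroid-gene-rich cells the higher share was 14.3%.

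Set against choroid plexus cells of the same 2 endings, the axoneme divided by gene. Across the 78 genes, the choroid level was a median of 10.7% of the level in the 469 ependymal cells; it was at least 25% for 18 genes and under 5% for 25. The inner arm genes had the lowest median share of any axoneme list, 2.69%, with Dnah12 at 0.00181 in choroid plexus cells against 4.19. Outer arm genes had 8.68%, the central pair 9.74%, the regulatory complex 12.9%, radial spokes 20.8% and the doublet list 23.4%. A sign of RNA quality moved with this order. Choroid plexus cells had little Malat1, a nuclear noncoding RNA (median 0.490 UMIs per 10000), and the ratio of Malat1-poor ependymal cells (under 20) to the others had list medians of 0.271 for the inner arms, 0.678 for the outer arms, 0.475 for the central pair, 0.875 for the regulatory complex, 0.956 for the spokes and 1.21 for the doublet list. Its part in the choroid shares was not tested. The extremes lay within single complexes. In the radial spokes Iqub, Rsph10b and Nme5 had choroid levels of 0.813, 1.05 and 2.11 against 0.848, 1.23 and 3.36 in ependymal cells, while Rsph14 had 0.0217 against 0.439. In the regulatory complex Drc7 had 1.62 against 2.08 and Iqca 0.0326 against 3.72. In the central pair Spag16 had 0.559 against 1.76 and Spag17 0.00905 against 2.66. Hydin, which is needed for a stable central pair, had 0.0362 against 3.79. Microglia of those endings had a median of 0.58% to 0.88% of the ependymal level over the 6 lists, so that a choroid share of several percent lay above what microglia carried. Intraflagellar transport (44.1%) and basal body genes (40.1%) were closer in the 2 cell sets, and Cfap126 was the most abundant shared doublet gene, at 3.14 and 7.16.

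**Figure D3:**
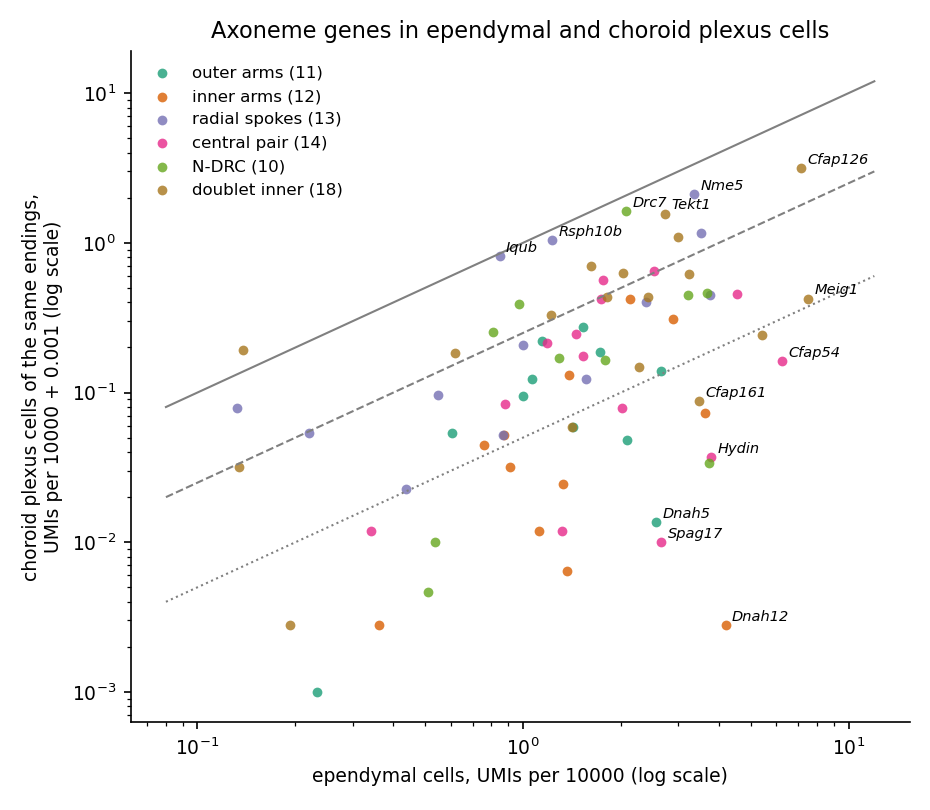
Each point is 1 axoneme gene, by its level in the 469 ependymal cells and in the choroid plexus cells of the same barcode endings (log axes, 0.001 added to the vertical one), coloured by complex. The solid line marks equal levels, the dashed line 25% and the dotted line 5%; 18 of 78 genes lie on or above the dashed line and 25 lie under the dotted line.

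Counted over all genes, 2365 of 9905 (23.9%) were at least 4-fold higher in the 520 cells than in choroid plexus cells and 310 (3.13%) at least 4-fold lower. Without the 51 choroid-gene-rich cells the lower count was 493 (4.90%) and the higher count 2630 (26.1%). By ratio to a level of at least 3 counts, Sntn, which encodes the ciliary tip protein sentan, Dnah12 and Stoml3, a stomatin relative, ranked highest. Their choroid plexus UMIs were 3, 1 and 3 in all, and their levels in the 520 cells were 3.84, 3.76 and 3.27. Cdhr4 (461-fold), Cdhr3, Tmem212 (382-fold), Ccdc153 (438-fold), the calcium buffer Calb1, Ucma and Dmkn (318-fold) completed the 10. On the other side, Ttr had 1394 in choroid plexus cells and 2.47 in the 469, and Enpp2, which makes autotaxin, 54.0 and 0.555. Kl, Kcnj13, Ptgds, Cox8b, Prcd, Prr32, Hemk1 and 2900040C04Rik were also among the 10 lowest. Kl and Kcnj13 are among the genes that chose the choroid plexus cells, so their place there is no finding. Respiratory chain genes set the linings apart as a list. None of 20 was 4-fold different from the other cells in either direction. Over all tested genes 13.5% were at least 4-fold higher than in the other cells and 12% at least 4-fold lower. The summed level of the 20 was 77.3 in the 469 ependymal cells, 330 in choroid plexus cells and 72.6 in astrocytes. Among the 469 the sum was 112 in Malat1-poor cells and 75.7 in the others, and choroid plexus cells had little Malat1. The part of RNA quality in this difference was not tested.

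Against astrocytes, the other glia that contact ventricle and vessel, 1410 of 10914 genes (12.9%) were at least 4-fold higher and 1032 (9.46%) at least 4-fold lower. Without the choroid-gene-rich cells these were 1452 (13.3%) and 1030 (9.41%). Astrocytes of all endings were used. Only 150 and 135 of the 3663 were in endings 1_2_1 and 1_2_2, which held nearly all ependymal cells. Cell type and ending therefore cannot be fully told apart in these counts. Stoml3 and 1700024G13Rik, with 3 and 1 astrocyte UMIs in all against levels of 3.27 and 3.25 here, ranked highest, followed by Ccdc153 (2515-fold), Tmem212 (2502-fold) and 1700012B09Rik (2343-fold). Genes of mature astrocyte function were low in ependymal cells: the glutamate transporter Slc1a2 had 2.77 against 78.6, Gja1 (connexin 43) 2.75 against 18.2, the connexin gene Gjb6 0.0160 against 7.35, and Gria2, an AMPA receptor subunit, 0.0431 against 14.1. Lsamp, Grm3, Gpc5, Dbx2, Omg and Chst2 were lower too, each under 0.0095-fold. Cldn5 and Flt1, which mark endothelium, were in the same list of 10 and came from the astrocyte set, at 3.20 and 4.13 there. Aqp4, the water channel, was shared, at 5.56 and 9.03, and Mlc1 was higher in ependymal cells at 6.55 against 3.32. Slc1a2, Gja1, Aqp4 and Mlc1 are among the genes that chose the astrocytes, so their levels in astrocytes are no finding. Sox9 and Sox2, factors of the glial lineage, had 10.3 and 4.06 in ependymal cells and 9.00 and 6.73 in astrocytes.

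Outside the rule, the 30 genes of highest ratio to all other cells were led by Musk, the muscle-specific receptor kinase, at 583-fold (374 to 961), though at a level of only 0.733. Nhlrc4 (500-fold), Tctex1d1 (484-fold), Stoml3 (448-fold), the keratin Krt15 (444-fold) and the zona pellucida gene Zp3 (439-fold) followed. Iqca, Ces1d, the urea transporter gene Slc14a2, Sntn, Lyg2, Fam216b, Dpy19l2, Gm10714, Dsc3, Prr29, Pih1h3b, Hydin and Akap14 had ratios of 341 to 417. The sodium channel gene Scn7a (339-fold, level 2.37), Zfp474, Gm21149, 1700019G24Rik, Dnah5, Gm48570, Tcp11, Uox, Npy2r, Cdhr3 and Lrrc43 made up the rest. Krt15 was uneven: it had a UMI in 37.3% of the 520 cells and reached 29.8 UMIs per 10000 in the highest cell.

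By level, the 10 highest genes outside mitochondrial and ribosomal protein genes were Malat1 (158), Dbi (139), Ttr (138), Apoe (122), Gm42418 (112), Mt1 (71.5), Fth1 (69.7), Hsp90aa1 (47.7), Mt3 (47.2) and Clu (32.5). Ttr left this group without the choroid-gene-rich cells. Dbi, the diazepam binding inhibitor, was found in every one of the 520 cells at 23.8-fold the level of the others, and choroid plexus cells had 37.0 and astrocytes 14.7. Gm42418 overlaps ribosomal RNA sequence and is reported as uncertain. The metallothionein genes Mt1, Mt3 and Mt2 were 5.23-fold to 5.79-fold higher than in the other cells but near the astrocyte levels of 58.9, 38.6 and 9.31. Hsp90aa1, a chaperone, was 15.0-fold higher, at 47.7 against 2.41 in astrocytes and 11.7 in choroid plexus cells. Of the 13 tested stress and immediate early genes 2 were at least 4-fold higher, Hsp90aa1 and Hspa1b (0.154), and 2 at least 4-fold lower. These counts are near the shares over all tested genes, 13.5% higher and 12% lower. Fos had 0.165, Egr1 0.135 and Hspa1a 0.177. Nnat, which encodes neuronatin, had a wide range over the 469 cells, from 8.39 at the lower quartile to 31.9 at the upper.

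Genes of the cell surface and of secretion followed by role. Rarres2 was the ligand of the chemerin system without its receptors: Cmklr1 had 0.0271, Ccrl2 0.00985 and Gpr1 no UMI in ependymal cells, while Cmklr1 had 0.701 in microglia of the same endings. Of 15 tested adhesion genes 4 were at least 4-fold lower (Cdh5, Cldn5, Gjb6 and Cldn10) and 4 at least 4-fold higher, Cdhr3 (312-fold), Cdhr4 (level 3.12), Epcam (29.8-fold) and Cldn2 (7.95-fold), the last being higher still in choroid plexus cells. Without the choroid-gene-rich cells Ocln (4.25-fold) and Ank3 (4.38-fold) passed too. Tight junction genes of the choroid plexus were near 0 in the 469 cells, with no UMI of Cldn3 or Cgn and a level of 0.00698 for Cldn1, while Ocln had 1.21. Of 18 tested transport genes 2 were at least 4-fold higher, among them the potassium channel gene Kcnj10 (1.95, 4.98-fold), and 1 at least 4-fold lower. Over all tested genes the shares were 13.5% and 12%. Slc2a1, the glucose transporter, had 5.51. The carbonic anhydrase and water channel genes of the choroid plexus, Car12, Car14 and Aqp1, had 0.00279, 0.00978 and 0.0112 in the 469 cells. Secreted carriers included Clu, 1500015O10Rik (7.24) and Calml4 (7.05), and the last pair had 10.5 and 13.1 in choroid plexus cells.

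Genes associated with radial glia and stem cells were mixed. Cd24a, a classical surface marker of ependyma, had 6.06 (40.6-fold), S100b 7.65 (10.0-fold), Vim 20.6 (9.13-fold), Gfap 3.74 (8.72-fold) and S100a6 11.6 (5.28-fold). Egfr, Thbs4 and Dcx, other genes tied to stem cells or their progeny, were close to 0, at 0.0160, 0.00369 and 0.00246. No cell cycle gene of the 4 tested was 4-fold higher, 2 were at least 4-fold lower, and the 12 listed genes summed to 0.431. Over all tested genes 13.5% were at least 4-fold higher and 12% at least 4-fold lower. Tanycytes, the ependyma of the third ventricle floor, were not seen in their markers: Rax had no UMI in the 469 cells, and Col25a1, Frzb, Crym and Adm had at most 0.0293, with Scn7a as the exception. Among transcription factors that mark brain regions, Otx2 (1.15), Zic1 (1.09), Zic4 (0.758), Meis2 (0.693), Irx5 (0.687), Irx3 (0.410, 14.4-fold) and Six3 (0.401) were detected. Each of 4 of them was found in a minority of cells after each cell was drawn down to 3000 UMIs, which 383 of the 469 reached. Zic1 was in 101 of 383 cells, Irx5 in 78, Otx2 in 77 and Zic4 in 75. Of the 77 Otx2 cells 45.5% also held Zic1, against 21.6% of the cells without Otx2.

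Markers of other cell types were counted over the 520 cells. Smooth muscle actin, Acta2, had 2.52 (106-fold) and Tagln 0.347 (20.4-fold), while the pericyte genes Rgs5, Kcnj8, Higd1b and Vtn had at most 0.180. Acta2 had a UMI in 58.0% of the 469 cells, against 1.34% of microglia in the same endings, and its highest cell held 94.1 UMIs per 10000. In the 383 thinned cells Tagln was found in 19 of 136 cells with Acta2 and in 2.43% of those without. Microglial genes were at a trace: C1qa had 2.88 against 105 in the microglia of those endings, and at least 5 of 8 microglial markers had a UMI in 99 cells. Astrocyte markers (at least 3 of 8) were found in 412 cells, T and NK cell markers (at least 3 of 6) in 13 and oligodendrocyte markers (at least 3 of 7) in 7. Hemoglobin came from few cells: 5 of the 469 held 97.2% of the Hbb-bs UMIs, and 1 held 61.3%. For S100a8, a neutrophil gene, 5 cells held 94.0%. Their part in other results was not tested.

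A second subset was set apart by nuclear RNA. Malat1 was under 20 UMIs per 10000 in 108 of the 469 cells (23.0%) and had a median of 167 in the other 361; the threshold was chosen after the values were seen. These 108 cells had a median of 2079 UMIs against 15186, and mitochondrial genes took a median of 0.111% of their UMIs against 7.65%. Over the 469 cells the log10 of Malat1 and the mitochondrial percent had a Pearson correlation of 0.72, given as a description of cells that come from 2 main endings and differ in depth. Every one of them had to hold at least 5 rule genes, so nothing is read from the levels of those genes in them. Other noncoding nuclear transcripts fell out with Malat1, Meg3 at 0.0652 against 2.34 and Kcnq1ot1 at 0 UMIs against 3.51. Long messages were low as well. Dnah12 had 0.587 against 4.36, Dnah5 0.489 against 2.66, Dnah6 0.815 against 3.74 and Hydin 1.14 against 3.90, while Sntn had 7.24 against 4.17 and Cfap126 12.7 against 6.91.

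This followed transcript length over all genes with a level of at least 0.5. The median ratio of the 108 cells to the 361 was 1.49 for the 298 genes whose longest transcript is under 1000 bases, 1.38 for 751 genes of 1000 to 2000, 1.03 for 1252 of 2000 to 4000, 0.640 for 1090 of 4000 to 8000, and 0.442 for 302 of 8000 or more. The same split of microglia in the 2 endings, where 5.97% of 4489 had so little Malat1, gave 1.39 in the shortest class and 0.371 in the longest. Choroid plexus cells as a whole had a median of 1.27% mitochondrial UMIs. No cell of the table exceeds 10% mitochondrial UMIs, so cells above that value are not seen here.

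**Figure D4:**
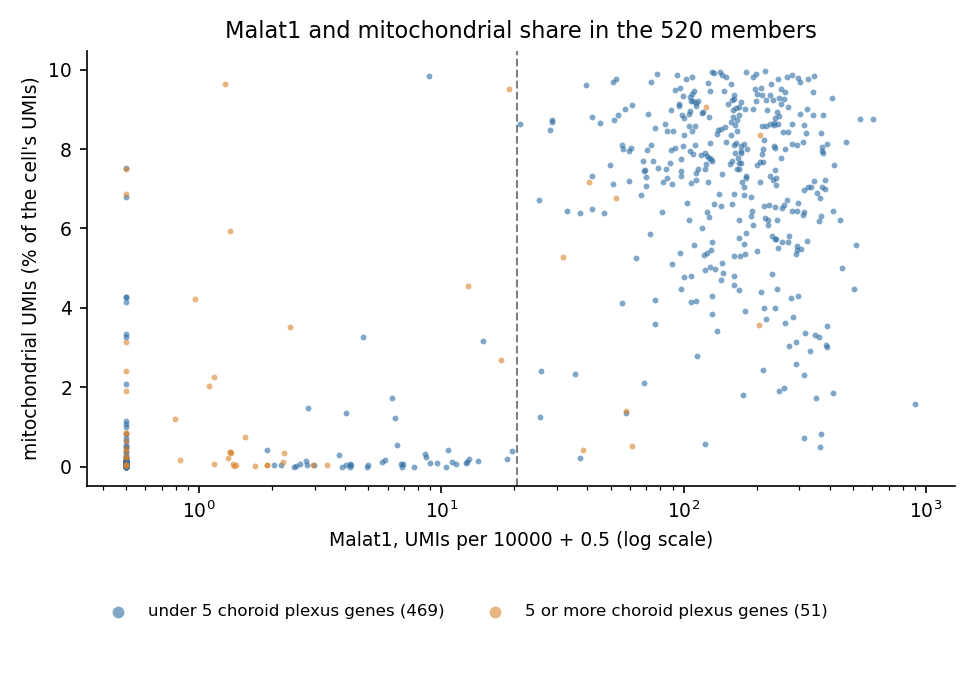
Each point is 1 of the 520 cells, by Malat1 in UMIs per 10000 plus 0.5 (log scale) and by the percent of its UMIs from the 13 mitochondrial genes. To the left of the dashed line (20 per 10000) most cells lie near 0% mitochondrial UMIs, and to its right the median of the blue cells is 7.65%.

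The same rule was applied to the 2 sets of columns of the second table whose names start with L7 and L8, which no label ties to a library; 11224 other columns were not used. It found 126 cells in L7 and 118 in L8, of which 112 each held under 5 choroid plexus genes. Apoe, the targeted gene of that table's label, had a level of 0.289 in the L7 cells and 110 in the L8 cells, so the L8 columns go against the label, and neither set is assigned a genotype here. The rule used the same kind of contrast in both tables. Of 1514 genes at least 4-fold higher in the aged table, 1210 were at least 4-fold higher here too, which is 79.9% of the first list and 82.7% of the 1464 in the second (13.1% of 11135 tested). Of the 78 axoneme genes 76 were at least 4-fold higher here. Ccdc153 had 23.4 and 26.0 in L7 and L8, against 19.9 and 21.0 in endings 1_2_1 and 1_2_2 (cells with under 5 choroid plexus genes throughout). The heavy chain genes Dnah5 and Dnah6 had higher levels in L7 and L8: 4.64 and 4.53 against 2.52 and 2.59 for Dnah5, and 6.04 and 5.67 against 3.20 and 3.82 for Dnah6. Higher levels were not confined to heavy chains. The summed central pair list had 45.3 and 42.2 against 30.4 and 32.8, and Rarres2 had 39.1 and 39.5 against 29.5 and 28.6. Mia, at 2.73 and 2.72 against 3.36 and 2.54, was not higher in both.

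Interferon response and MHC class I genes had higher levels in the aged endings than in the second table. The summed level of the 15 interferon response genes was 24.5 and 38.5 in endings 1_2_1 and 1_2_2, and 10.5 and 12.6 in L7 and L8. Isg15, a ubiquitin-like antiviral protein, had 0.508 and 0.971 in the aged endings and 0.0440 and 0.00978 in L7 and L8. Ifit3 had 1.43 and 2.65 against 0.534 and 0.313, and Bst2 (tetherin) 1.05 and 1.83 against 0.163 and 0.0978. Both aged endings lay above both column sets for each of these genes, and ending 1_2_2 was the highest of the 4. For the 14 MHC class I and loading genes the sums were 12.6 and 15.9 against 6.58 and 6.38, with B2m, the invariant chain, at 1.99 and 2.96 against 0.540 and 0.508. In choroid plexus cells both aged endings also lay above both column sets in the interferon list, 25.2 and 44.4 against 17.5 and 16.1, as they did in microglia, 10.9 and 19.2 against 6.60 and 6.81. In astrocytes they did not, at 5.34 and 19.9 against 8.47 and 3.44, from 150, 135, 48 and 120 cells. The interferon sum was 58.5 in the 108 Malat1-poor ependymal cells and 32.8 in the other 361, and Malat1-poor cells made up 29.9% of the ependymal cells of L7 and L8 against 23.0% in the aged table. Their part in the difference was not tested. Age, genotype, preparation and library cannot be told apart here, and no test was possible.

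**Figure D5:**
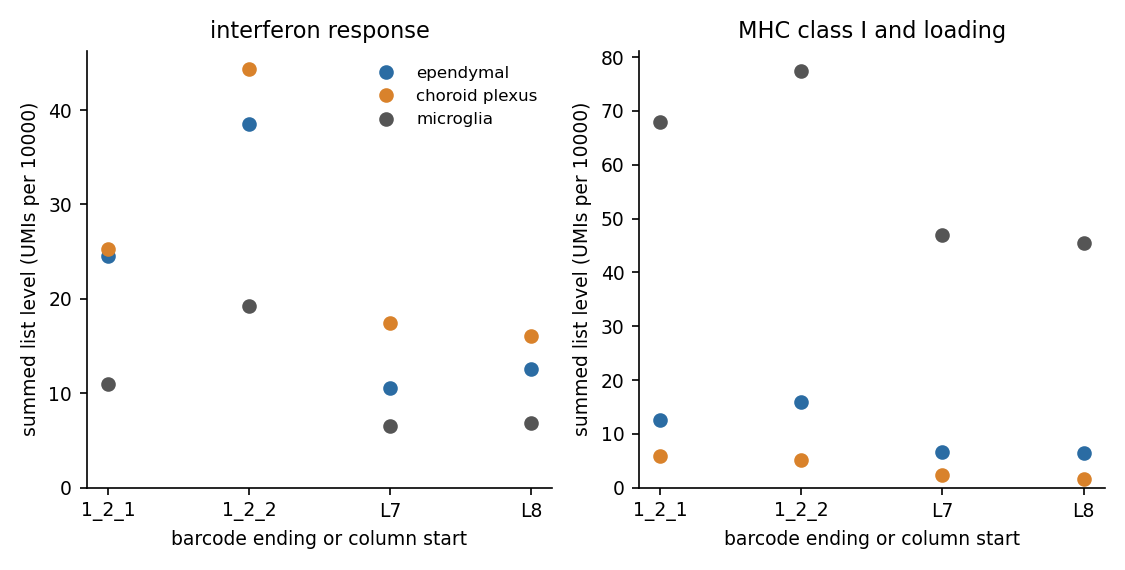
Points are the summed levels (UMIs per 10000) of the interferon response list (left) and the MHC class I and loading list (right) in ependymal cells with under 5 choroid plexus genes, choroid plexus cells and microglia, by barcode ending of the aged table (1_2_1, 1_2_2) or column start of the second table (L7, L8); each point is 1 pooled value with no replicate. For ependymal cells the aged endings (24.5 and 38.5) lie above L7 and L8 (10.5 and 12.6) in the interferon list.

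Within the aged table, interferon genes were carried unevenly by the ependymal cells. In the 383 thinned cells the list had a median of 8 UMIs per cell and a 95th percentile of 26, up to 47. Ifit1 was found in 41.7% of the 108 thinned cells with Ifit3 and in 10.5% of those without. Of the 15 genes 1, Ifitm3, was at least 4-fold higher than in the other cells over the 520 cells, at 15.5 (5.44-fold). Among all tested genes 13.5% were. Over the 469 cells Ifit3 was too (4.21-fold), where 14.3% of all tested genes were. Ifi27 had 9.37. Against the other cells, 0 of 13 MHC class I and loading genes were at least 4-fold higher and 4 were at least 4-fold lower, where 12% of all tested genes were at least 4-fold lower; H2-K1 had 4.92 and H2-D1 2.70, with the microglia of the same endings at 12.0 and 16.2. MHC class II genes were near 0, Cd74 at 0.0665. Of 9 tested genes of reactive glia and the acute phase 6 were at least 4-fold higher and 2 (Lcn2 and Cd14) at least 4-fold lower. Among the higher were complement C3 (2.79, 18.6-fold), C4b (1.81, 5.65-fold), ceruloplasmin, Cp (1.38, 4.56-fold), and Serpina3n (0.318, 5.12-fold). C3 and C4b had 0.0326 and 0.0271 in choroid plexus cells of the same endings. Summed over the list, ependymal cells with under 5 choroid plexus genes had 12.1 and 13.3 in endings 1_2_1 and 1_2_2. Astrocytes there had 7.67 and 71.8, from 150 and 135 cells. Lcn2 and Timp1, which mark acute injury, had 0.0123 and 0.00369.

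Variation among the cells was measured after thinning to 3000 UMIs, which 434 of the 520 reached and 86 did not. The variance divided by the mean, which is 1 for counting noise alone, was highest for Ttr (645), Hbb-bs (638), Hba-a1, Hba-a2 (164), Hbb-bt (128), S100a9 (79.7), S100a8 (72.6), Enpp2 (29.1), Malat1 (26.5) and Gm42418 (25.2). Without the choroid-gene-rich cells Ttr dropped to 21.1 and Enpp2 to 1.09, and the hemoglobin and neutrophil genes rested on the few cells named above. In the thinned 383 cells Hydin had 1.34 and Dnah12 1.25, whereas Ifit3 had 4.30 and Acta2 4.10. Between the 2 large endings, the widest ratios belonged to AY036118 (3.69 in 1_2_1 and 15.4 in 1_2_2), Hbb-bs (22.0 and 6.44), Hbb-bt (4.12 and 1.47), Lars2 (1.51 and 4.01) and Hba-a1 (7.19 and 2.90). The Hbb-bs value of 1_2_1 rested on 1 cell, which held 5671 of its 5734 UMIs without the choroid-gene-rich cells. The share of ependymal cells with a Hbb-bs UMI went the other way, at 21.4% in 1_2_1 and 42.5% in 1_2_2. AY036118 overlaps ribosomal RNA sequence and is uncertain like Gm42418.

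Rule genes were also seen at low shares in microglia, and these shares differed by ending. Ccdc153 had a UMI in 7.30% of microglia of ending 1_2_2 (median depth 8511 UMIs) and in 4.96% of those of 1_2_1 (8588), against 0 of 1172 in 1_1_1, 2 of 2586 in 1_1_2 and 0 of 2868 in 1_3. In the 520 ependymal cells the share was 94.6%. Rarres2 had 17.4% and 9.58% of microglia in the 2 endings and 0.773% to 1.81% in the others, and Ttr 93.3% and 72.0% against 6.91% to 12.3%. The ependymal share of cells and the microglial share with a Ccdc153 UMI were both higher in 1_2_2 than in 1_2_1.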

How the data were processed

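The deposited droplet tables hold UMI counts per gene and cell (3′ chemistry, version 3.1, per the labels' protocols), made by the authors with bcl2fastq, FastQC, Trim Galore and Cell Ranger 4 on mm10, per the submitters' processing notes. Cells were not filtered further except by the 500-gene minimum. Barcode endings and the starts L7 and L8 match no label, so each table was treated as 1 pooled sample; 11224 columns of the second table were not used, and the planned count test of white against grey matter could not be run. Levels are summed UMIs per 10000, with exact Poisson 95% intervals; ratios used a floor of 3 counts in the denominator and exact conditional intervals. Shares have exact Clopper-Pearson intervals. Intervals cover counting error only. Genes with a level of at least 0.1 in either set were compared at a 4-fold minimum. The ratio code was tested on simulated data: of 9499 genes simulated for ependymal against other cells, 100% of those with a true 8-fold change and 0% of the unchanged passed 4-fold. No doublet caller was run; doublets were treated only by the alternatives of the closing section. Named genes were the rule genes, members of the lists, the 30 highest ratios outside the rule among genes found in at least 25% of the cells, the 10 highest levels, the 10 most extreme ratios to choroid plexus cells and astrocytes (level 2 or more), the 10 most variable and the 5 that differ most between endings. Cell members and gene lists were chosen with earlier results of these data known. Python 3.11.15, numpy 2.4.6 and scipy 1.17.1 were used. Some members of the gene lists are not reported here.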

Additional observations from a re-analysis of the deposited data

How the results depend on the processing

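No paired analysis was possible because the columns carry no batch or replicate number, so none of the planned white against grey matter fits was run. Without the members holding 3 markers of another type, 65 of 520 cells were left. Astrocyte markers were the most frequent, with at least 3 in 412 of the 520, followed by microglial and then choroid plexus markers. The cause of the changes was not tested. The genes at least 4-fold lower then numbered 3150 (1340 as reported) against other cells, 1151 (310) against choroid plexus cells and 2957 (1032) against astrocytes. The count lower than in choroid plexus cells moved most: it was 28 with 4 of 7 rule genes required and, with alternatives chosen after seeing the data, 493 without the choroid-gene-rich cells, 470 without cells under 20 Malat1 UMIs per 10000 and 499 without both. Leaving out 1 barcode ending at a time gave 155 to 520 cells. All counts of genes at least 4-fold higher stayed within 1.5 times under every alternative run, at 1176 to 1622 against other cells and 70 to 78 for the axoneme. The level of Ttr ran from 2.43 to 375. With 1 pooled sample, spread between animals is not seen. Depth limits genes of few UMIs and also went with the gene counts that set the rule and the choroid plexus split. Cells with 5, 6 and 7 rule genes had medians of 3477, 5773 and 16109 UMIs. The median was 1697 UMIs in ependymal cells with 0 choroid plexus genes and 30206.5 in those with 4. The part of depth in membership was not tested.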
